A study of Mus musculus with 16 samples.

Results

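The replication-dependent histone genes were taken as all protein-coding genes whose symbol starts with Hist1h, Hist2h, Hist3h or Hist4h in the GENCODE M21 annotation of the mouse genome build GRCm38. This rule found 67 genes among the 35968 genes measured, and it used no measured value. The RNA came from mouse embryonic stem cells (ESCs) in 4 groups of 4 libraries, all labelled poly(A) RNA. Dgcr8 knockout (KO) cells were sampled on day 2 of culture with an mTOR inhibitor (mTORi), which the labels call paused, and KO cells were sampled in normal ESC culture. Wild-type (WT) cells were sampled in the same 2 cultures, and each sample was made from 800000 cells and 1 µg of total RNA. Dgcr8 is part of the nuclear complex that releases microRNA precursors from their primary transcripts, so its loss removes most microRNAs. The labels name neither the inhibitor, nor how many clones the KO cells represent, nor whether the replicates were separate cultures, and a p-value here therefore speaks only for the spread among these libraries, which may be technical.

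Replication-dependent histone genes supply the linker histone H1 and the core histones H2A, H2B, H3 and H4 while DNA is copied in S phase. Most of their mRNAs carry no poly(A) tail: the pre-mRNA is cut just after a short conserved stem-loop, which the stem-loop binding protein Slbp holds, with help from a small nuclear ribonucleoprotein that contains Lsm10 and Lsm11. Some of these genes can also be cleaved further downstream and polyadenylated, and a poly(A)-selected library keeps those transcripts and loses most of the others. The values below therefore describe the polyadenylated fraction and any tailless mRNA that was carried over, which cannot be told apart, and they do not measure total histone mRNA. In bulk RNA, fewer cells in S phase and less histone RNA per cell also cannot be told apart.

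Libraries held 88377380 to 116646028 estimated counts, and the 67 histone genes took 0.0336% to 0.0450% of them. The 6 ESC markers had a summed level, in CPM (counts scaled to library size), of 4629 to 4788 in paused KO, 3911 to 4028 in normal KO, 4001 to 4207 in paused WT and 3789 to 3919 in normal WT libraries. The 8 fibroblast markers summed to 20.1 to 23.0 CPM in paused KO, 32.5 to 36.7 in normal KO, 13.5 to 16.8 in paused WT and 18.2 to 20.0 in normal WT libraries. The 5 extraembryonic endoderm markers summed to 184 to 204 CPM in paused KO, 246 to 300.2 in normal KO, 190 to 231 in paused WT and 212 to 307 in normal WT libraries. So the fibroblast sum lay apart, with the paused libraries below, in each genotype, and the endoderm sum in KO cells. In normal culture the fibroblast sum was higher in all KO than in all WT libraries. Single markers did not follow that sum: by the test described below, of 4 that passed its filter 1 was called higher and 3 lower in KO. Of 4 endoderm markers that passed it, 0 were higher and 3 lower in KO there, although the sums overlapped. Among all genes tested 34.1% were higher and 34.1% lower. The 4 trophoblast markers summed to 5.09 to 6.67 CPM in paused KO and 5.93 to 8.07 CPM in normal KO libraries. In WT they summed to 11.1 to 12.6 CPM in paused and 9.18 to 11.9 CPM in normal libraries. Every KO library was below every WT library in this sum. Of these 4 markers 2 were called lower and 1 higher in KO in normal culture, and 2 lower and 0 higher in paused culture. In paused culture 34.5% of all genes tested were lower and 30.8% higher in KO. No marker of the 4 lists was at 0 in a whole group. The part of these cell types in the results was not tested. Dgcr8 averaged 181 ± 7.34 CPM in paused KO, 250.3 ± 4.13 in normal KO, 53.9 ± 2.43 in paused WT and 47.3 ± 1.81 in normal WT cells (SD, n = 4 each). Since the deleted stretch of Dgcr8 is not named in the labels, its higher level in KO cells checks nothing. The libraries of 3 groups fell into 2 sides, replicates 1 and 2 on one and 3 and 4 on the other. The median chi-square per gene was 2.07 to 2.43 between normal WT libraries of 1 side and 9.27 to 13.0 across sides, 1.28 to 2.02 and 3.43 to 4.45 in paused WT, and 1.92 to 2.71 and 3.48 to 5.58 in normal KO. In paused KO it was 3.15 to 3.37 within these sides and 2.12 to 4.99 across them. The labels name no batch for this split. Values from each side, a split chosen after seeing the data, are given where they differ by over 1.5-fold in a result described below, and for the genes of the Hist3 cluster, Hist1h1c and Hist1h2bc. The 50 calls among the named genes over the 5 comparisons kept their sign on both sides. Since the same libraries gave those calls, the shared sign is no independent support.

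The mouse histone genes lie in 4 clusters. Hist1 on chromosome 13 held 54 genes, Hist2 on chromosome 3 held 10, Hist3 on chromosome 11 held 2 and Hist4 on chromosome 6 held 1. By type there were 6 H1, 18 H2A, 18 H2B, 12 H3 and 13 H4 genes. The annotated transcripts fell into 3 kinds by what follows the stop codon, judged on the transcript that took most of a gene's counts. In 22 genes the model ended within 100 bases after a stem-loop, in 23 it ran further, and in 22 it held no stem-loop, mostly because the model stopped at or near the stop codon. The stem-loop was searched for as its 16-base consensus, and it was found without a mismatch in 46 genes, 21 to 58 bases after the stop codon. The following examples are shown because they carry the main forms and belong to genes that the results turn on. The stem-loop is in capitals, the flanking bases are in lower case, and all are written in the sense direction from GENCODE M21 transcripts.

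Hist1h2ap: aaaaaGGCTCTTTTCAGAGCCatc
Hist3h2a: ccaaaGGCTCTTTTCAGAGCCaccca
Hist3h2ba: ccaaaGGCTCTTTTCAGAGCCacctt
Hist1h1c: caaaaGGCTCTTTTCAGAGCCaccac
Hist1h3e: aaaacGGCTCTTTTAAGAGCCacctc
Hist4h4: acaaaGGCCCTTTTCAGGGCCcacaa
Hist1h4i: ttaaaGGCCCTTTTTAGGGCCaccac
Hist1h3g: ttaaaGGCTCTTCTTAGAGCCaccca

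The form in Hist1h2ap, Hist3h2a, Hist3h2ba and Hist1h1c was shared by 26 genes of types H1, H2A, H2B and H3. The form in Hist4h4 was found in 7 genes, all of type H4, and the 12 H4 genes with a stem-loop used 4 forms, none of which occurred in another type. Hist1h3e stood for 6 genes of types H1, H2B and H3, and the forms in Hist1h4i and Hist1h3g occurred in 2 genes and 1 gene. Poly(A) signals were sought only inside the annotated models, and sequence past their ends was not read. Median lengths were 1249 bases for the long models, 483.5 for those ending near the stem-loop and 396 for those with no stem-loop. Short models leave little room for a signal, so the counts below describe the annotation and not what can end a transcript. A poly(A) signal, AATAAA or ATTAAA, lay after the stop codon in 16 of the 23 long models, in 1 of the 22 that ended near the stem-loop and in 3 of the 22 with no stem-loop. In 12 of those 16 long models the last signal began within 40 bases of the annotated end. The sites below belong to the long models of genes described in the results, and the signal is in capitals.

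Hist3h2a: gtatatgcccAATAAAataagagtac
Hist3h2ba: taatggtattAATAAAtttggttcaa
Hist1h1c: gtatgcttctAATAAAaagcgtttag
Hist1h4i: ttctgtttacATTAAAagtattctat

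Hist3h2a lies at chr11:58954685-58956830 on the forward strand, and its 2146-base model runs 1643 bases past the stem-loop. Hist3h2ba lies next to it at chr11:58948920-58949533, also on the forward strand, with 169 bases past the stem-loop. Hist1h1c lies at chr13:23738808-23740367 on the forward strand, with 840 bases past it. Near-identical coding sequences limit how far single genes can be told apart. By pair, coding sequences of 1 type were a median 70.6% identical for H1, 91.5% for H2A, 93.9% for H2B, 97.2% for H3 and 93.9% for H4. A gene had a median 44.8% of its 31-base words found in no other gene, 37 of the 67 genes were under 50% and 10 were under 10%, so the split of reads among such copies is uncertain. The median was 70.6% for the long models, 34.9% for those ending near the stem-loop and 16.8% for those with no stem-loop. Of the 67 genes, 7 overlapped a gene on the same strand and 21 a gene on the other strand, and whether the counting used strand is not given in the sources used here.

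The promoters of 61 of these genes were matched in RefSeq (GRCm38.p6), 250 bases before to 50 after the start, and were searched on both strands against all 27025 promoters of that table. CCAAT was present in 85.2% of histone promoters and in 37.9% of all promoters. It was in every promoter of the H1, H2A, H2B and H3 genes and in 3 of 12 H4 promoters. TATAAA was in 57.4% and 14.2%. The octamer ATTTGCAT, the sequence known from H2B promoters as the site of Oct factors, was in 21.3% and 1.75%, and all 13 were H2A or H2B genes, 7 of 17 and 6 of 16. Many of these genes sit in divergent pairs whose windows overlap, so promoters are not independent, and a match is a description of letters. The 2 promoters of the Hist3 cluster are printed because both of its genes changed, with motif matches on either strand in capitals.

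Hist3h2a promoter, chr11:58954435-58954734, forward strand: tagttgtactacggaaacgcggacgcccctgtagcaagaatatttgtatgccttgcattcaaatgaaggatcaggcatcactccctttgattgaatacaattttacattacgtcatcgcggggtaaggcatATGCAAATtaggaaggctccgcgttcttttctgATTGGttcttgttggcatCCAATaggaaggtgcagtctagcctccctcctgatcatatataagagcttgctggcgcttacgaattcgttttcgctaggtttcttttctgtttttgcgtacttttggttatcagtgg
Hist3h2ba promoter, chr11:58948661-58948960, forward strand: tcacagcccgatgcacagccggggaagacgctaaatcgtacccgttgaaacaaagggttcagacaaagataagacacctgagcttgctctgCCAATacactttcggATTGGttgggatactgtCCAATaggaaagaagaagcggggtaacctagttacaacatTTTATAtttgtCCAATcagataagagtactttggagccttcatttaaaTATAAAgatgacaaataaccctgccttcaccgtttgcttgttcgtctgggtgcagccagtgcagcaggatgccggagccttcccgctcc

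The Hist3h2a window held 1 octamer and 2 CCAAT matches and no TATAAA. The Hist3h2ba window held 4 CCAAT and 2 TATAAA matches and no octamer. Nothing about a factor follows from either.

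A pair of H2A genes dominated the histone RNA of these libraries. On the TPM scale, which is per transcript length and allows genes to be compared, Hist1h2ap averaged 1052 TPM and Hist1h2ah 789 TPM over the 16 libraries. Together they took 83.9% to 89.0% of the summed TPM of the 67 genes. Both are short models, Hist1h2ap ending 3 bases after its stem-loop and Hist1h2ah holding none. Of the Hist1h2ap words, 6.64% were unique and 93.4% occurred in Hist1h2ao, and of the Hist1h2ah words 8.80% were unique and 88% occurred in Hist1h2ad. Those 2 levels are therefore best read as the level of groups of near-identical H2A genes. Another 6 genes averaged between 10 and 100 TPM, 35 between 1 and 10 TPM and 24 under 1 TPM. The leading gene of the other types was Hist1h2bc for H2B at 17.6 TPM, Hist1h3h for H3 at 14.9 TPM, Hist1h4i for H4 at 5.69 TPM and Hist1h1c for H1 at 3.09 TPM. Hist2h2aa1 led the Hist2 cluster at 2.82 TPM, Hist3h2ba the Hist3 cluster at 2.33 TPM, and Hist4h4 was at 0.387 TPM. Depth was small for most genes: 50 of the 67 averaged under 1 CPM, the median gene had 58.9 estimated counts per library, and Hist1h4m was listed at 0 in every library.

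**Figure D1:**
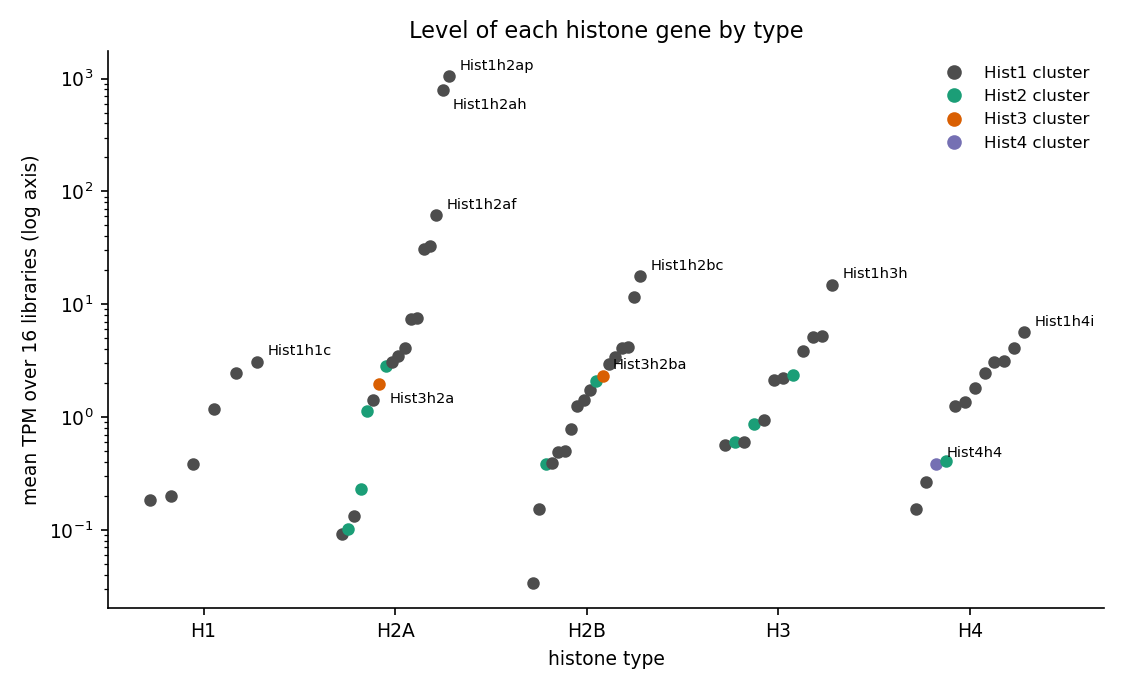
Each point is 1 histone gene, placed by type, with its mean TPM over the 16 libraries on a log axis and its cluster in colour. Hist1h2ap at 1052 TPM and Hist1h2ah at 789 TPM stand above all others, and Hist1h4m, at 0, is not drawn.

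Changes between groups were tested with edgeR's quasi-likelihood test on all 18944 genes that passed the filter on low counts, with p-values adjusted over all of them by the Benjamini-Hochberg method. A gene is called higher or lower at an adjusted p under 0.05, and a few genes outside the naming rule are given where they complete a short count, chosen after their values were seen. Of the 67 histone genes 61 passed the filter. Hist2h2ab, Hist1h2bm, Hist1h2aa, Hist2h2ac, Hist1h2ba and Hist1h4m did not, and they averaged 0.00 to 0.04 CPM. Levels per library below are in CPM scaled by TMM factors, which allows libraries to be compared but not genes of different length.

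Paused KO cells were compared with KO cells in normal culture to ask what mTORi culture does to histone RNA without Dgcr8. The 2 most abundant genes, Hist1h2ap and Hist1h2ah, were lower, the third, Hist1h2af, was higher, and the other genes called higher were less abundant, several with long models. Of the 61 genes tested 12 were called higher and 14 lower, against 34.4% higher and 32.8% lower among all genes tested. In both directions together 42.6% passed, against 67.2% of all genes. Their median log2 fold change was -0.16, against 0.02 for all genes tested.

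Hist3h2a, an H2A gene of the Hist3 cluster, had 5.60, 5.89, 4.05 and 4.40 CPM in the 4 paused KO libraries, against 0.994, 0.534, 0.748 and 0.693 CPM in the normal KO libraries. The groups did not overlap, and replicates 1 and 2 were the highest in paused KO. Its log2 fold change was 2.75 ± 0.30 (SE, adjusted p = 4.6e-07), the largest rise among histone genes averaging at least 1 CPM. It was 2.92 in replicates 1 and 2 alone and 2.55 in replicates 3 and 4 alone. Of the Hist3h2a words, 32.1% also occur in Trim17, a ubiquitin ligase gene that overlaps it on the same strand. Trim17 itself was at 0.469 ± 0.0680 CPM in paused KO and 0.555 ± 0.119 CPM in normal KO (SD, n = 4 each), not past the threshold, with a log2 fold change of -0.24 and log2 ratios of -0.63 in replicates 1 and 2 and 0.18 in replicates 3 and 4.

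Hist3h2ba, the neighbouring H2B gene, had 1.49, 1.31, 1.11 and 0.893 CPM in paused KO, against 0.548, 0.482, 0.499 and 0.567 CPM in normal KO. Every paused library was above every normal one, with a log2 fold change of 1.19 ± 0.30 (adjusted p = 0.0019), and it was 1.44 in replicates 1 and 2 alone and 0.91 in replicates 3 and 4 alone. Hist3h2ba averages 0.671 CPM over the 16 libraries and is named as the highest gene of its cluster. Hist1h1c, the leading linker histone gene, had 3.77, 3.83, 3.05 and 3.10 CPM in paused KO, against 2.12, 1.76, 1.72 and 2.04 CPM in normal KO. These groups were also apart, and the log2 fold change was 0.85 ± 0.14 (adjusted p = 4.2e-05). It was 0.97 in replicates 1 and 2 alone and 0.72 in replicates 3 and 4 alone.

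The H2B gene Hist1h2bc, whose spliced model holds no stem-loop, had 15.01, 14.3, 13.1 and 13.7 CPM in paused KO, against 9.77, 9.16, 10.4 and 10.01 CPM in normal KO. It rose by 0.51 ± 0.15 on the log2 scale (adjusted p = 0.0070). The rise was 0.63 in replicates 1 and 2 alone and 0.40 in replicates 3 and 4 alone. Hist1h2bg, another H2B gene, rose by 0.61 ± 0.19, and that call was lost without the libraries numbered 3 (0.36, adjusted p = 0.12). It was 0.30 in replicates 1 and 2 alone, not past the threshold, and 0.93 in replicates 3 and 4 alone. Hist1h2af, an H2A gene with 14.1% unique words, rose by 0.60 ± 0.13. It had 8.68, 7.91, 9.45 and 7.68 CPM in paused KO, against 5.96, 6.03, 6.16 and 4.11 CPM in normal KO. Of its words 85.9% also occur in Hist1h2ad, which fell, so reads could have been split between these genes. Among less abundant genes, chosen after their values were seen, Hist2h2be rose by 1.08 ± 0.21 and Hist1h4k by 1.40 ± 0.33. Hist1h4k had log2 ratios of 2.11 in replicates 1 and 2 and 0.84 in replicates 3 and 4. Only 13.8% of the Hist1h4k words were unique and 73.0% also occur in Hist1h4a, so its reads could have been split. Hist2h3c1 and Hist2h3c2 have near-identical coding sequences, so their counts were added: the pair averaged 1.12 ± 0.247 CPM in paused KO and 0.299 ± 0.0220 CPM in normal KO (SD, n = 4 each), a log2 ratio of 1.91. Hist2h3b was not added, although 80.6% of its words also occur in Hist2h3c1. It went the other way, with 0.368 CPM in paused KO and 0.654 CPM in normal KO, and reads could have been split among these genes.

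The 2 leading H2A genes went the other way. Hist1h2ah had 84.1, 84.0, 89.3 and 78.7 CPM in paused KO, against 162, 144, 145 and 159 CPM in normal KO, and fell by 0.86 ± 0.05 on the log2 scale (adjusted p = 6.9e-11). Hist1h2ap had 184, 176, 207 and 179 CPM in paused KO, against 240.1, 225, 217 and 227 CPM in normal KO, a fall of smaller size (log2 fold change -0.28 ± 0.05, adjusted p = 5.5e-05). In neither gene did the groups overlap. Of the less abundant H2A genes, Hist1h2ad fell by 1.08 ± 0.13, Hist1h2an by 1.52 ± 0.22 and Hist1h2ai by 0.61 ± 0.14. All 3 share over 60% of their words with another H2A gene of this group, and reads could have been split among them.

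Hist1h3h, the leading H3 gene, fell by 0.59 ± 0.14, with 1.96, 1.91, 1.85 and 1.38 CPM in paused KO, against 3.00, 2.86, 2.37 and 2.44 CPM in normal KO. Only 5.77% of its words were unique and 85.3% also occur in Hist1h3i, so reads could have been split between these genes. Hist1h2bk was the H2B gene that fell, by 0.53 ± 0.12, and Hist4h4, the gene of the Hist4 cluster, fell by 0.51 ± 0.16. Hist1h2ae fell by 0.43 ± 0.16 (adjusted p = 0.020), and this call was lost without paused KO replicate 2 or 3 or normal KO replicate 1 or 2 (adjusted p = 0.076, 0.053, 0.061 and 0.056). Hist1h4i, Hist1h3i and Hist1h3e did not pass the threshold, with log2 fold changes of -0.33, -0.18 and 0.19, and Hist1h4i passed it without normal KO replicate 2 (-0.40). The number of genes called lower was 9 without the libraries numbered 4.

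**Figure D2:**
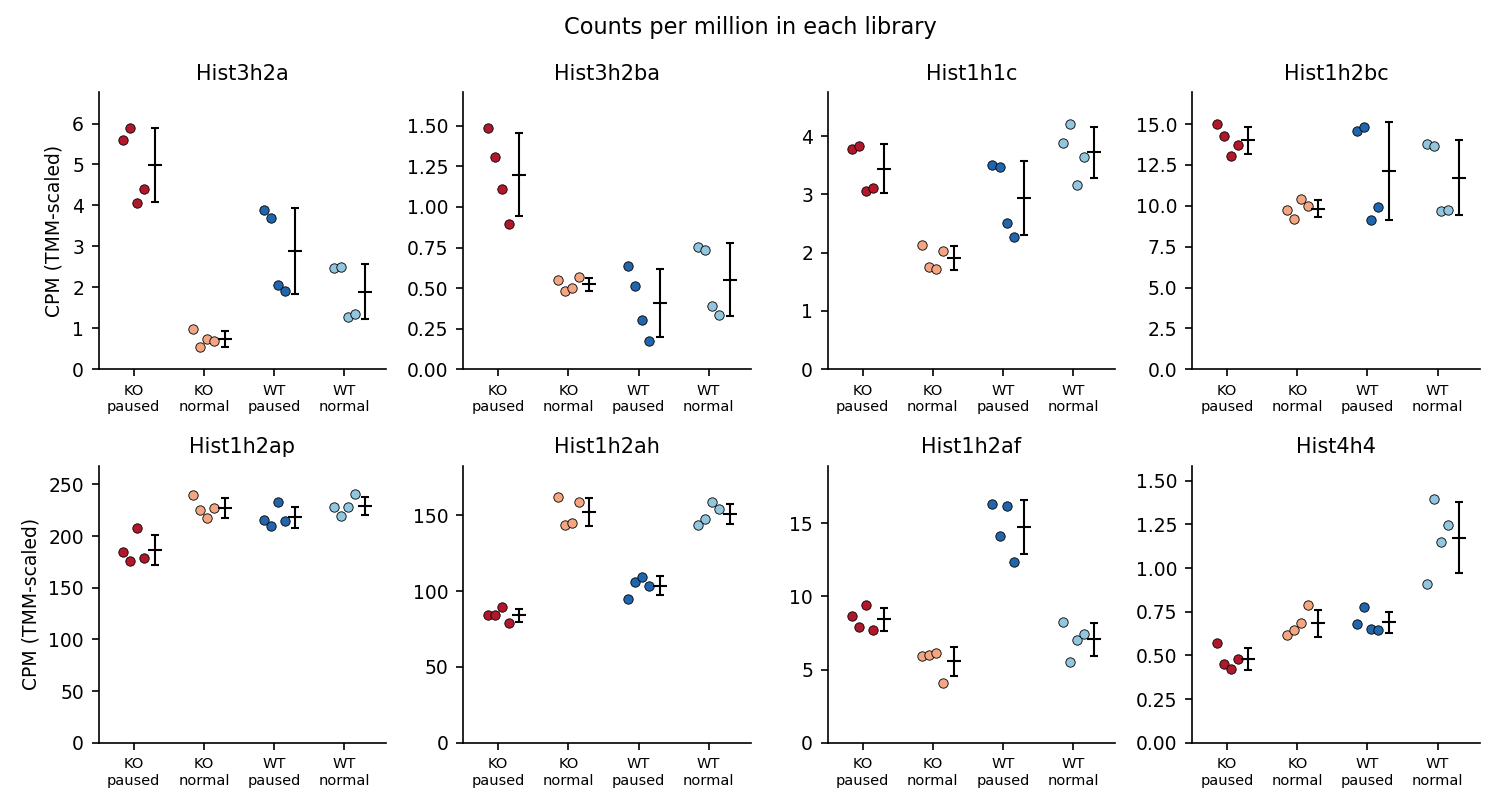
Each point is 1 library, grouped as paused KO, normal KO, paused WT and normal WT, and the bar beside each group is the mean with 1 SD (n = 4). The y axes show TMM-scaled CPM, start at 0 and differ between genes. Hist3h2a, Hist3h2ba and Hist1h1c lie apart in the KO groups with the paused libraries above, and Hist1h2ap and Hist1h2ah lie apart with the paused libraries below.

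Beside the counts below, 34.4% of all genes tested were higher and 32.8% lower in paused KO. The shares of H2B genes, Hist2 genes and long models that rose were near the former. By type, 6 of the 16 H2B genes tested were higher in paused KO and 1 was lower. By contrast, 2 of the 15 H2A genes were higher and 9 lower. Of the others, 1 of 6 H1 genes rose and none fell, 2 of 12 H3 genes rose and 3 fell, and 1 of 12 H4 genes rose and 1 fell. By cluster, both Hist3 genes rose, 3 of the 8 Hist2 genes tested rose and 1 fell, and 7 of the 50 Hist1 genes rose and 12 fell. By model, 7 of the 23 long models rose and 2 fell, with a median log2 fold change of 0.19, while none of the 19 that ended near the stem-loop rose and 6 fell, with a median of -0.33. Genes whose model holds no stem-loop were split, 5 higher and 6 lower of 19. Long models also have more unique words, and among genes with at least 50% unique words 7 rose and 2 fell of 27. The part of read sharing in this difference was not tested.

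WT cells in mTORi culture were compared with WT cells in normal culture in the same way. More histone genes fell than rose. Of the 61 tested, 28 were called lower and 1 higher, against 27.5% lower and 33.3% higher among all genes tested, and 47.5% passed in either direction, against 60.7%. The median log2 fold change was -0.43, against 0.04 for all genes tested. The only gene called higher was Hist1h2af, with 16.3, 14.2, 16.2 and 12.4 CPM in paused WT, against 8.22, 5.55, 7.04 and 7.46 CPM in normal WT. Its groups did not overlap, and its log2 fold change was 1.06 ± 0.13 (adjusted p = 1.8e-06). Only 14.1% of its words were unique and 85.9% also occur in Hist1h2ad, which fell, so reads could have been split between these genes. The number called higher was 5 without normal WT replicate 1, 3 without normal WT replicate 2 or paused WT replicate 3, and 2 without paused WT replicate 1 or 4.

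Hist1h2ah had 94.7, 106, 109 and 104 CPM in paused WT, against 143, 148, 159 and 154 CPM in normal WT, and fell by 0.54 ± 0.05 (adjusted p = 3.7e-08). Hist1h2ap did not pass the threshold, with 215, 209.8, 233 and 214 CPM in paused WT and 228, 219.8, 228 and 240.4 CPM in normal WT. Its groups overlapped and its log2 fold change was -0.07 ± 0.05 (adjusted p = 0.23). Hist1h2an fell by 1.15 ± 0.22, Hist1h2ad by 0.74 ± 0.13, Hist1h2ae by 0.53 ± 0.15 and Hist1h2ai by 0.48 ± 0.14.

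Types other than H2A gave only falls. All but 1 of the 6 H1 genes fell, 8 of 16 H2B genes, 4 of 12 H3 genes and 6 of 12 H4 genes, beside 5 of 15 H2A genes. Over all genes tested 27.5% were lower in paused WT. Hist4h4 had 0.683, 0.776, 0.651 and 0.645 CPM in paused WT, against 0.907, 1.39, 1.15 and 1.24 CPM in normal WT, and fell by 0.77 ± 0.15 (adjusted p = 0.00017). Hist1h4i had 1.99, 2.26, 1.40 and 1.30 CPM in paused WT, against 2.81, 3.32, 2.90 and 2.67 CPM in normal WT, and fell by 0.75 ± 0.16 (adjusted p = 0.00042). In both genes every paused library was below every normal one. The H3 genes Hist1h3i and Hist1h3e fell by 0.87 ± 0.21 and 0.40 ± 0.15. The call of Hist1h3e was lost without normal WT replicate 1 or paused WT replicate 2 or 4 (adjusted p = 0.11, 0.083 and 0.084). Only 6.82% of the Hist1h3i words and 15.6% of the Hist1h3e words were unique, so reads could have been split with other H3 genes. Hist1h3h, which holds 85.3% of the Hist1h3i words, had -0.09 and did not pass the threshold. Hist1h2bk fell by 0.34 ± 0.11.

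Hist1h1c had 3.51, 3.46, 2.51 and 2.27 CPM in paused WT, against 3.88, 4.20, 3.16 and 3.64 CPM in normal WT, and the groups overlapped. Its log2 fold change of -0.34 ± 0.14 was close to the threshold (adjusted p = 0.045). The call was lost without paused WT replicate 3 or 4 (adjusted p = 0.14 and 0.16) and without normal WT replicate 1, 2 or 4 (0.084, 0.10 and 0.060). It was -0.21 in replicates 1 and 2 alone and -0.51 in replicates 3 and 4 alone.

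The Hist3 genes and Hist1h2bc showed the split of the WT libraries. Hist3h2a had 3.88, 3.70, 2.07 and 1.91 CPM in paused WT, against 2.47, 2.50, 1.28 and 1.34 CPM in normal WT. Within each side the paused libraries were higher, by 0.61 in replicates 1 and 2 (adjusted p = 0.0096) and by 0.60 in replicates 3 and 4 (adjusted p = 0.0020) on the log2 scale, but over all 4 libraries the groups overlapped and the test was not passed (0.60 ± 0.27, adjusted p = 0.068). Leaving out normal WT replicate 1 or 2, or paused WT replicate 3 or 4, brought it past the threshold with log2 fold changes of 0.75, 0.75, 0.74 and 0.76. Hist3h2ba did not pass the threshold, with 0.639, 0.513, 0.304 and 0.174 CPM in paused WT and 0.753, 0.735, 0.387 and 0.331 CPM in normal WT (log2 fold change -0.44 ± 0.32), and it was at -0.37 in replicates 1 and 2 alone and -0.58 in replicates 3 and 4 alone, neither past it. Hist1h2bc, with 14.6, 14.8, 9.12 and 9.95 CPM in paused WT and 13.7, 13.6, 9.71 and 9.77 CPM in normal WT, had a log2 fold change of 0.05 ± 0.15 and did not pass either, with 0.10 and -0.04 on the 2 sides.

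In paused WT 27.5% of all genes tested were lower and 33.3% higher. By model, 12 of the 23 long models fell in paused WT and none rose. Of the 19 that end near the stem-loop 9 fell and none rose, and of the 19 with no stem-loop 7 fell and 1 rose. Their median log2 fold changes were -0.44, -0.47 and -0.29. Of the genes called, 8 were lower in both genotypes on mTORi culture, and 2, Hist1h1c and Hist1h2bh, were higher in KO and lower in WT. Of the 61 tested, 14 were lower and 12 higher in KO, and 28 were lower in WT. The same overlaps were not counted over all genes tested, so neither number is read as particular to histone genes.

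**Figure D3:**
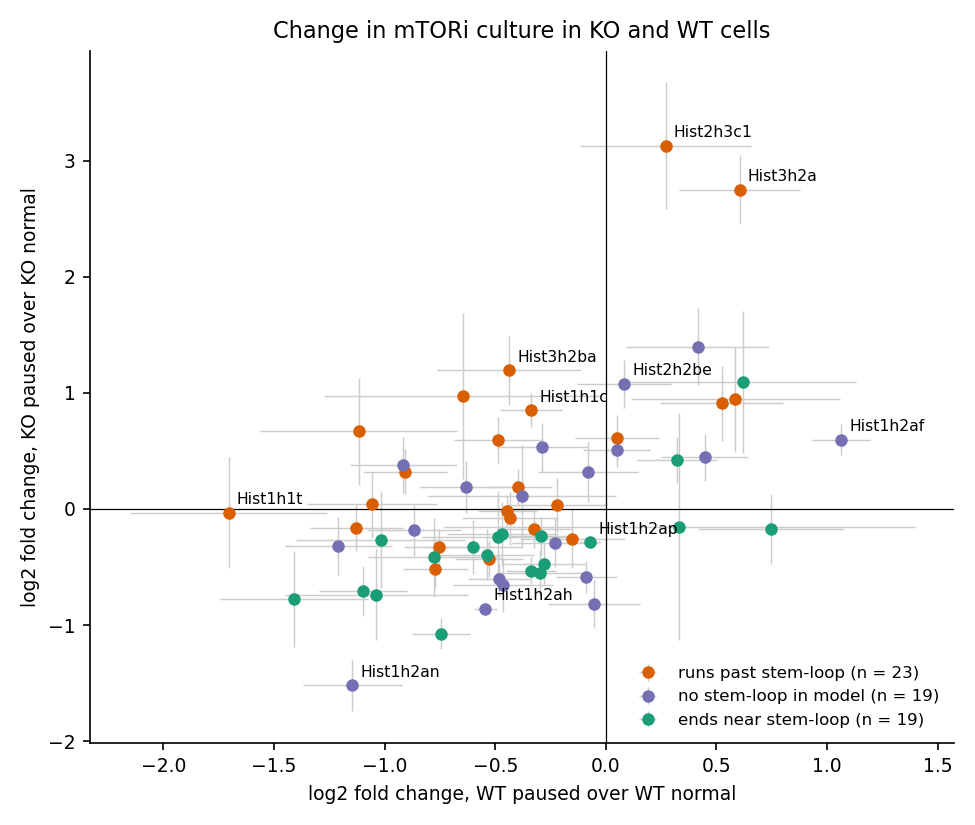
Each point is 1 of the 61 histone genes tested, with its log2 fold change in WT cells (paused over normal) on the x axis and in KO cells on the y axis, bars of 1 SE, and colour for the kind of transcript model. Most points lie left of zero, and Hist3h2a at 2.75 and Hist2h3c1 at 3.13 lie highest on the KO axis. Reads of Hist2h3c1 could have been split with its near copy Hist2h3c2, and the 2 added together had a log2 ratio of 1.91 in KO.

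The difference between the genotypes was tested directly as the KO change minus the WT change. It was called higher, that is more positive in KO cells, for 16 of 61 genes and lower for 4, against 17.4% and 24.5% among all genes tested. In either direction 32.8% passed, against 41.9%. Its median was 0.36, against -0.03. Of the 16, 11 were among the 23 long models, 5 among the 19 models with no stem-loop and none among the 19 that end near the stem-loop. By type they were 4 of 6 H1, 7 of 16 H2B, 2 of 12 H3, 2 of 12 H4 and 1 of 15 H2A genes. The count of 16 was 9 without paused WT replicate 4 and 10 without paused KO replicate 2. The 4 called lower, Hist2h3b, Hist1h3h, Hist1h2ah and Hist1h2ap, were 1 without paused KO replicate 2 or 4 or normal WT replicate 3, and 2 without normal KO replicate 1 or 2, paused WT replicate 3 or normal WT replicate 4.

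The 3 largest positive differences called among genes averaging at least 1 CPM were in Hist3h2a, Hist1h1c and Hist1h3e. Of the Hist1h3e words, 15.6% were unique and 75.2% also occur in Hist1h3f, so its reads could have been split. For Hist3h2a the difference was 2.15 ± 0.40 (adjusted p = 0.00049), with 2.32 in replicates 1 and 2 and 1.94 in replicates 3 and 4. For Hist1h1c it was 1.19 ± 0.20 (adjusted p = 0.00014), with 1.18 and 1.23 on the 2 sides. Hist3h2ba had 1.63 ± 0.44 (adjusted p = 0.0065), with 1.81 and 1.49. So each of these 3 differences had the same sign and similar size on both sides of the split. The sides are parts of the libraries that gave these calls, so that likeness is a description and no independent support.

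For Hist1h3e the difference was 0.58 ± 0.22 (adjusted p = 0.041) and lost its call without any 1 of 8 libraries, paused KO replicate 1, 2 or 3, normal KO replicate 1 or 2, paused WT replicate 2 or 4, or normal WT replicate 1, with values down to 0.50. It was 0.94 in replicates 1 and 2 (adjusted p = 0.010) and 0.25 in replicates 3 and 4 (adjusted p = 0.57). Among the negative ones, Hist1h2ah had -0.31 ± 0.07 (adjusted p = 0.0022) and its call held without each library in turn. Hist1h2ap had -0.21 ± 0.07 (adjusted p = 0.020), lost without paused KO replicate 2 or 4 (-0.18 and -0.18) or normal WT replicate 2 or 3 (-0.16 and -0.17). Hist1h3h had -0.50 ± 0.20 (adjusted p = 0.0495), lost without any 1 of 11 libraries, all but paused KO replicate 1, normal KO replicates 3 and 4 and normal WT replicates 1 and 2, with values between -0.36 and -0.53. The difference of Hist1h2bc was called on each side alone. It was 0.52 (adjusted p = 0.00039) in replicates 1 and 2 and 0.43 (adjusted p = 0.0027) in replicates 3 and 4. Over all libraries Hist1h2bc had 0.46 ± 0.21 and Hist1h2af -0.46 ± 0.19, neither past the threshold. Hist1h2bc passed it without normal WT replicate 3 or paused WT replicate 1 or 2 (0.59, 0.57 and 0.57), and Hist1h2af without paused KO replicate 3, normal KO replicate 4, paused WT replicate 4 or normal WT replicate 1 (-0.51, -0.59, -0.54 and -0.55).

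KO cells in mTORi culture were set against WT cells in the same culture. Of 61 histone genes 5 were called higher and 13 lower, against 30.8% higher and 34.5% lower among all genes tested. In either direction 29.5% passed, against 65.4%. The median was -0.17, against -0.03. The 5 were Hist3h2ba, Hist2h4, Hist3h2a, Hist2h2be and Hist2h2bb, the 2 genes of the Hist3 cluster and 3 of the 8 Hist2 genes tested, and no gene of the Hist1 cluster. Without paused WT replicate 4 they were 3. Hist3h2ba had 1.49, 1.31, 1.11 and 0.893 CPM in paused KO, against 0.639, 0.513, 0.304 and 0.174 CPM in paused WT, a log2 fold change of 1.55 ± 0.31 (adjusted p = 0.00024). Every KO library was above every WT library, and the log2 fold change was 1.28 in replicates 1 and 2 alone and 2.05 in replicates 3 and 4 alone. Hist3h2a was higher by 0.78 ± 0.26 (adjusted p = 0.015), a call lost without paused WT replicate 3 or 4 (0.65 and 0.63), and by 0.60 and 1.09 on the 2 sides. Its overlapping neighbour Trim17 also passed the threshold here, at 0.469 ± 0.0680 CPM in paused KO and 0.276 ± 0.0629 CPM in paused WT (log2 fold change 0.77, SD, n = 4 each).

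Among the genes called lower in paused KO, Hist1h2ah had a log2 fold change of -0.30 ± 0.05, Hist1h2ap -0.22 ± 0.05, Hist1h2af -0.81 ± 0.13, Hist1h3h -0.45 ± 0.14 and Hist4h4 -0.52 ± 0.16. For Hist1h2af the libraries had 8.68, 7.91, 9.45 and 7.68 CPM in paused KO, against 16.3, 14.2, 16.2 and 12.4 CPM in paused WT, and did not overlap. Its reads could have been split with those of Hist1h2ad, which had -0.28 and did not pass the threshold. Hist1h2bk was at -0.27 ± 0.12 (adjusted p = 0.049), and that call was lost without paused KO replicate 2 or 4 or any 1 of the paused WT libraries. Hist1h1c, Hist1h2bc and Hist1h2ai did not pass, with 0.23, 0.21 and -0.26. In replicates 1 and 2 alone Hist1h1c had 0.13 and Hist1h2bc -0.01, neither past the threshold. Both passed it in replicates 3 and 4 alone, with 0.37 (adjusted p = 0.025) and 0.50 (adjusted p = 1.3e-05).

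In normal culture 30 of the 61 histone genes tested were lower in KO than in WT cells and 1 was higher, and the 2 most abundant H2A genes did not pass the threshold. The shares were 49.2% lower and 1.64% higher, against 34.1% lower and 34.1% higher among all genes tested. In either direction 50.8% passed, against 68.2%, with a median log2 fold change of -0.52, against -0.03. By type, 5 of 6 H1, 9 of 16 H2B, 8 of 12 H3, 5 of 12 H4 and 3 of 15 H2A genes were lower. Hist1h1c had 2.12, 1.76, 1.72 and 2.04 CPM in normal KO, against 3.88, 4.20, 3.16 and 3.64 CPM in normal WT, and fell by 0.96 ± 0.14 (adjusted p = 1.0e-05). Hist3h2a had 0.994, 0.534, 0.748 and 0.693 CPM in normal KO, against 2.47, 2.50, 1.28 and 1.34 CPM in normal WT, and fell by 1.36 ± 0.30 (adjusted p = 0.00083). In both genes every KO library was below every WT library. The fall of Hist3h2a was 1.71 in replicates 1 and 2 alone and 0.86 in replicates 3 and 4 alone, where that of Hist1h1c was 1.06 and 0.86. Hist3h2ba did not pass the threshold over all libraries (-0.09), but its sides had opposite signs, -0.53 in replicates 1 and 2 (adjusted p = 0.039) and 0.56 in replicates 3 and 4 (adjusted p = 0.10). Hist1h2bc had -0.25 over all libraries, also without passing, with -0.53 (adjusted p = 5.9e-06) and 0.06 (adjusted p = 0.45) on the 2 sides.

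Hist1h3e fell by 0.70 ± 0.16, with log2 fold changes of -1.02 in replicates 1 and 2 alone and -0.39 in replicates 3 and 4 alone, where it did not pass. Hist1h3i fell by 0.80 ± 0.21 and Hist4h4 by 0.78 ± 0.15. Reads of Hist1h3e and Hist1h3i could have been split with other H3 genes. The pair Hist2h3c1 and Hist2h3c2, chosen after its values were seen, averaged 0.299 ± 0.0220 CPM in normal KO and 1.44 ± 0.527 CPM in normal WT (SD, n = 4 each), a log2 ratio of -2.27. The normal WT libraries held 2.11, 1.62, 1.02 and 1.03 CPM of this pair, and the log2 ratio was -2.59 in replicates 1 and 2 and -1.83 in replicates 3 and 4. Hist2h3b, which shares words with this pair and was not added, averaged 0.654 CPM in normal KO and 0.488 CPM in normal WT. Hist2h2aa1 and Hist2h2aa2, which share nearly all of their sequence, averaged 0.590 ± 0.129 CPM in normal KO and 1.08 ± 0.158 CPM in normal WT as a pair, a log2 ratio of -0.87. For Hist2h2aa1 alone the fitted fall was 1.69 ± 0.60, and its call was lost without normal KO replicate 1 or 4 or normal WT replicate 1 (adjusted p = 0.0502, 0.051 and 0.057). It was -1.34 in replicates 1 and 2 alone, not past the threshold, and -2.60 in replicates 3 and 4 alone, whereas the pair had -0.85 and -0.89.

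Calls close to the threshold were Hist1h2af at -0.34 ± 0.14, lost without normal KO replicate 4 (-0.22) or normal WT replicate 1 or 4 (-0.26 and -0.31), and Hist1h4i at -0.38 ± 0.16, lost without normal KO replicate 2 or 3 (-0.32 and -0.33) or normal WT replicate 2 (-0.33). The 2 most abundant H2A genes did not pass: Hist1h2ap had a log2 fold change of -0.01 ± 0.05 and Hist1h2ah of 0.01 ± 0.05. The 1 gene called higher, Hist1h2ao, averaged 0.28 CPM and shares 93.8% of its words with Hist1h2ap. Added together, those 2 genes averaged 228 ± 9.49 CPM in normal KO and 229 ± 8.45 CPM in normal WT (SD, n = 4 each). Without normal KO replicate 3, 2 genes were called higher.

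**Figure D4:**
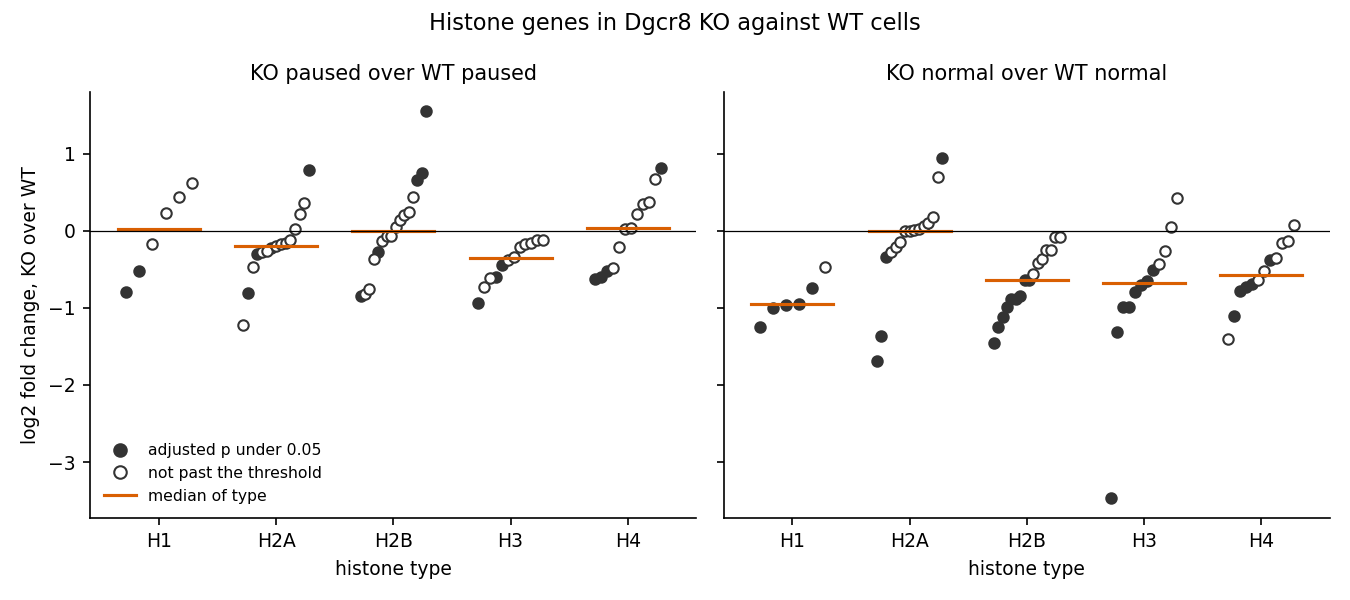
Each point is 1 of the 61 histone genes tested, with the log2 fold change of KO over WT on the y axis in paused culture (left) and normal culture (right), by histone type. Filled points passed an adjusted p of 0.05, and the bar is the median of the type, which in normal culture was -0.96 for H1, -0.00 for H2A, -0.64 for H2B, -0.68 for H3 and -0.58 for H4.

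Sums over types were described without a test. The 67 genes together averaged 342 ± 20.5 CPM in paused KO, 448 ± 21.8 in normal KO, 401 ± 13.8 in paused WT and 467 ± 5.10 in normal WT (SD, n = 4 each). Paused and normal libraries did not overlap in either genotype, with log2 ratios of -0.39 in KO and -0.22 in WT. The 2 leading H2A genes held 77.5% to 84.9% of the counts in these sums. Summed H2B was 23.7 ± 1.47 CPM in paused KO, against 18.0 ± 0.467 in normal KO, with no overlap. In WT it was 21.3 ± 4.05 CPM in paused and 23.2 ± 3.88 CPM in normal cells, where the 2 sides of the split were wider apart than the cultures.

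Summed H1 was 5.75 ± 0.523 CPM in paused KO, against 4.32 ± 0.546 in normal KO, and 5.89 ± 0.881 CPM in paused WT, against 7.96 ± 1.02 in normal WT. Neither pair overlapped, so the H1 sum in CPM was higher in paused than in normal KO and lower in paused than in normal WT (log2 ratios 0.41 and -0.43). Summed H4 averaged 6.01 ± 0.655 CPM in paused KO and 6.75 ± 0.914 in normal KO, which overlapped, and 6.47 ± 0.763 CPM in paused WT and 9.11 ± 0.599 in normal WT, which did not. The Hist3 pair summed to 6.18 ± 1.11 CPM in paused KO, against 1.27 ± 0.215 in normal KO, and to 3.30 ± 1.24 CPM in paused WT, against 2.45 ± 0.900 in normal WT. Only the KO groups were apart. The long models summed to 22.6 ± 2.46 CPM in paused KO and 16.04 ± 1.41 in normal KO, apart, and to 20.2 ± 4.01 CPM in paused WT and 25.1 ± 3.58 in normal WT, overlapping.

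On the TPM scale the sum of all 67 genes was 1878 ± 90.4 in paused KO, 2296 ± 81.1 in normal KO, 2165 ± 56.1 in paused WT and 2163 ± 90.1 in normal WT. The WT difference seen in CPM is absent there. However, the median log2 ratio in TPM of all genes averaging at least 1 CPM was 0.20 in KO and 0.30 in WT pausing. For KO against WT that median was 0.16 in normal and 0.07 in paused culture. Relative to the median gene in TPM the histone sum was lower in paused cells of both genotypes. Among the type sums, H1 in TPM had log2 ratios of 0.51 in KO, apart, and -0.16 in WT, where the groups overlapped. The H4 sum turned sign with the scale in KO cells, 0.18 in TPM and -0.17 in CPM, both overlapping, and in WT it was -0.09 in TPM, overlapping, and -0.49 in CPM. The H2A sum in WT was 0.01 in TPM, overlapping, and -0.22 in CPM, where the groups lay apart. The H2B, Hist3 and long-model sums kept their sign, and the KO groups lay apart, on both scales.

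**Figure D5:**
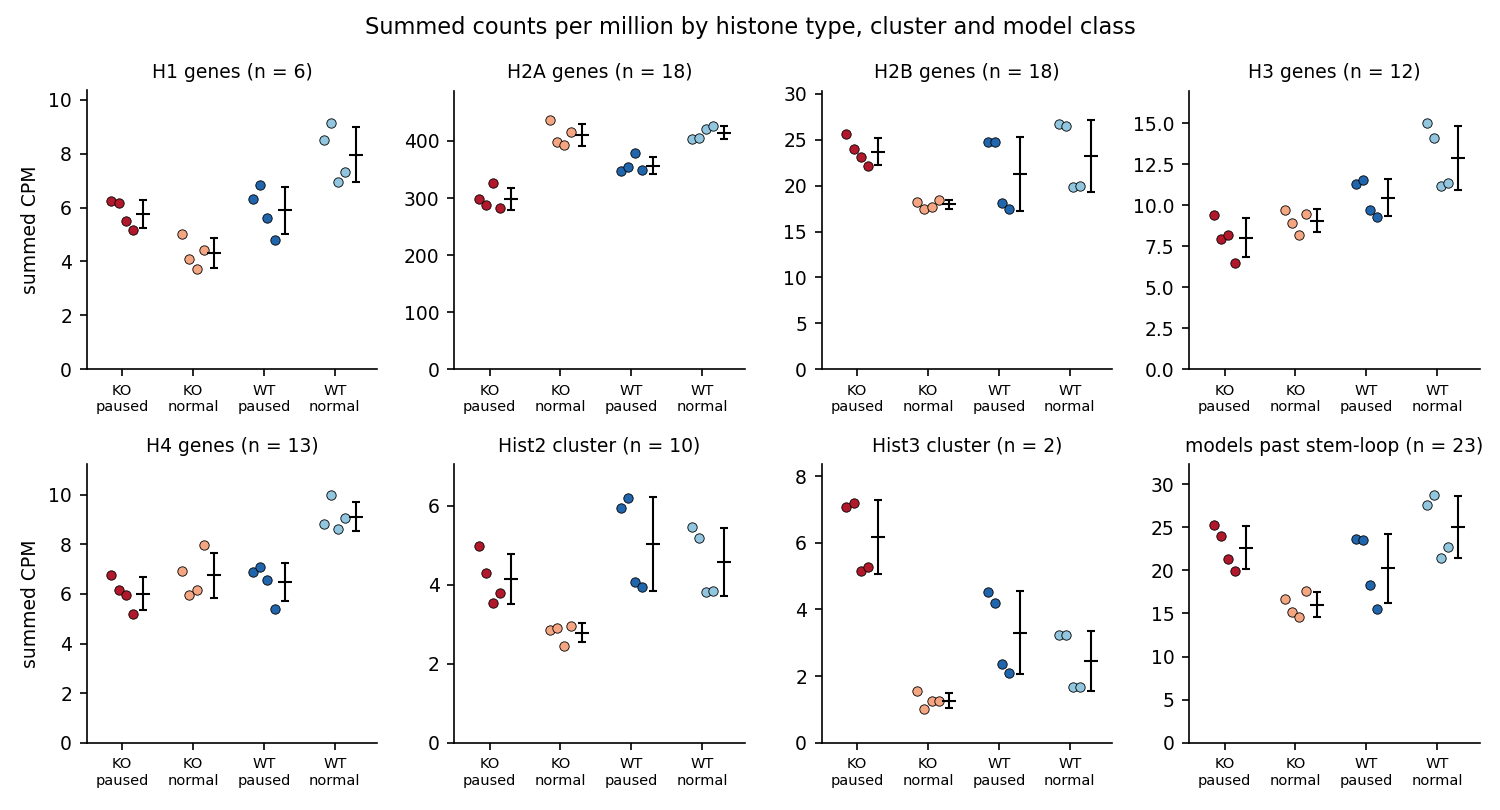
Each point is the summed TMM-scaled CPM of the genes named in the panel title in 1 library, grouped as paused KO, normal KO, paused WT and normal WT, with the mean and 1 SD (n = 4) beside each group. All axes start at 0 and differ between panels. On this scale the H1, H2B, Hist3 and long-model sums are higher in all paused KO than in all normal KO libraries, and the H2A sum is lower.

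Genes that make, process and handle histones were read from the same tests, in lists chosen with earlier results of these data known. Among all genes tested 32.8% were lower and 34.4% higher in paused KO, and 27.5% lower and 33.3% higher in paused WT. Of 16 genes for histone 3′-end processing, 12 (75%) were lower and 4 (25%) higher in paused KO, and 9 (56.2%) lower and 3 (18.8%) higher in paused WT. Slbp, the stem-loop binding protein, averaged 73.4 ± 0.735 CPM in paused KO, against 111 ± 3.07 in normal KO, and 88.7 ± 1.97 CPM in paused WT, against 124 ± 7.13 in normal WT (SD, n = 4 each). It fell by 0.60 ± 0.04 in KO and by 0.48 ± 0.04 in WT. Lsm10, a subunit of the processing ribonucleoprotein, averaged 7.76 ± 0.173 CPM in paused KO, against 13.2 ± 0.664 in normal KO. It fell by 0.77 ± 0.06 in KO cells, had -0.11 ± 0.06 in WT cells without passing the threshold, and the difference between genotypes was called (-0.65 ± 0.09). In normal culture Lsm10 was higher in KO than in WT by 0.69 ± 0.06.

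Its partner Lsm11 rose on mTORi culture by 0.31 ± 0.05 in KO and 0.18 ± 0.05 in WT, and Npat, the coactivator of histone gene transcription, rose by 0.27 ± 0.07 and 0.31 ± 0.07. Casp8ap2, a scaffold of the histone locus body, fell by 0.17 ± 0.04 in KO and did not pass in WT (0.10 ± 0.05). The cap-binding subunits Ncbp1 and Ncbp2 fell by 0.65 ± 0.03 and 0.75 ± 0.04 in KO, and by 0.67 ± 0.03 and 0.53 ± 0.04 in WT. Of 14 genes for canonical cleavage and polyadenylation 9 (64.3%) fell and 1 (7.14%) rose in paused KO and 10 (71.4%) fell and 1 (7.14%) rose in paused WT. Clp1, an RNA kinase of the cleavage complex, fell by 0.57 ± 0.05 and 0.65 ± 0.05. Cstf3, a subunit of the cleavage stimulation factor, fell by 0.71 ± 0.04 in KO, with a difference between genotypes of -0.49 ± 0.06. Pabpn1, the nuclear poly(A)-binding protein, was higher in KO than in WT, by 0.69 ± 0.04 in paused and 0.83 ± 0.04 in normal culture.

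Of 17 histone chaperone genes 13 (76.5%) fell and 3 (17.6%) rose in paused KO, and 11 (64.7%) fell and 5 (29.4%) rose in paused WT. Hat1, the acetyltransferase of new H4, fell by 1.11 ± 0.03 in KO and 0.92 ± 0.03 in WT, and Ssrp1 of the FACT complex fell by 0.78 ± 0.03 in each. Asf1a, an H3 and H4 chaperone, was lower in KO than in WT by 1.21 ± 0.05 in paused and 1.58 ± 0.05 in normal culture. Of 10 regulators of entry into S phase 6 (60%) fell and 2 (20%) rose in paused KO, and 5 (50%) fell and 3 (30%) rose in paused WT. For 9 of the 10 the change was called more negative in KO, against 24.5% of all genes tested. In normal culture 7 (70%) of the 10 were higher in KO than in WT and 0 lower, against 34.1% higher and 34.1% lower among all genes. In paused culture 3 (30%) were higher and 4 (40%) lower in KO, against 30.8% and 34.5%. Ccne1, cyclin E1, averaged 46.9 ± 2.81 CPM in paused KO, against 303 ± 10.8 in normal KO, and 123 ± 7.03 CPM in paused WT, against 271 ± 37.8 in normal WT. It fell by 2.69 ± 0.08 and 1.14 ± 0.08. Cdk2, its kinase partner, rose by 0.13 ± 0.05 in KO and 0.34 ± 0.05 in WT.

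The replication-independent histone variants, whose mRNAs are polyadenylated as a rule, changed in both directions. Of 11 tested, 4 (36.4%) rose and 4 (36.4%) fell in paused KO, and 5 (45.5%) rose and 3 (27.3%) fell in paused WT, and all of these shares but the 45.5% were near those of all genes. H2afz averaged 400.02 ± 10.5 CPM in paused KO, against 920.4 ± 22.1 in normal KO, and 628 ± 19.7 CPM in paused WT, against 1142 ± 51.5 in normal WT, and fell by 1.20 ± 0.04 and 0.86 ± 0.04. H2afx, whose gene can give both a stem-loop form and a polyadenylated form, rose by 0.19 ± 0.07 and 0.45 ± 0.07. H2afj fell by 0.87 ± 0.09 and 1.37 ± 0.09. H3f3a fell by 0.11 ± 0.04 in KO and rose by 0.12 ± 0.04 in WT, and H3f3b rose by 0.13 ± 0.04 in KO and had 0.07 ± 0.04 in WT, not past the threshold. H1f0, the linker variant of resting cells, had -0.27 ± 0.19 in KO, not past the threshold, and fell by 0.52 ± 0.19 in WT (adjusted p = 0.030). Its libraries had 26.1, 25.7, 22.1 and 20.9 CPM in paused WT, against 44.1, 44.1, 24.3 and 23.7 CPM in normal WT, and the groups overlapped. The log2 ratio was -0.77 in replicates 1 and 2 and -0.16 in replicates 3 and 4.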

How the data were processed

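Poly(A)-selected RNA of 16 mouse ESC libraries, 4 in each of 4 groups taken from the labels, was quantified by the authors with kallisto on GRCm38, per the submitters' processing notes, with a version not given in the sources used here. The deposited tables give for each transcript, per the file headers, its estimated count (expected count), its TPM and its effective length. Of 118489 transcripts 116728 were matched to GENCODE M21, and the others held 0.656% to 0.712% of the counts and were left out. Estimated counts and TPM were summed per gene, and counts were rounded. Totals were 88377380 to 116646028 per library, and their size limits the precision of genes with few counts.

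Tests used edgeR 4.0.16 (R 4.3.3), with its robust quasi-likelihood fit and F test, on all 16 libraries with 1 mean per group, after filterByExpr with a minimum count of 10 (18944 genes) and TMM scaling (factors 0.933 to 1.07), at an adjusted p of 0.05, in 5 contrasts. The biological coefficient of variation was 0.0852. SE is the absolute log2 fold change over the square root of F. The fit was tested on simulated data. The symbol rule for the members used no measured value, but the members and gene lists were chosen with earlier results of these data known. Named genes were the 12 of highest mean TPM, the 4 largest rises and the 4 largest falls called per contrast among genes averaging at least 1 CPM, the leader of each type and cluster, and for the lists the largest 3 per contrast beside 12 genes fixed by name. Alternatives were DESeq2 1.42.0, its size factors, no filter, length-scaled TPM counts, only the groups of a contrast, a replicate block, a term for replicates 1 and 2 against 3 and 4, left-out libraries and a fit without the 39 genes at least 98% identical in coding sequence to another. Words of 31 bases, the stem-loop (up to 2 mismatches allowed) and poly(A) signals were read from the M21 transcripts found in the deposited tables, and promoters are from RefSeq GRCm38.p6. Replicate numbers were not taken to pair samples, since in every contrast at least 1 same-numbered pair correlated under 0.1.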

Additional observations from a re-analysis of the deposited data

Results flagged for a closer look

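In a group of 4 libraries, 1 stood far from the other 3: Hist1h2af had 4.11 CPM in normal KO replicate 4, against 5.96 to 6.16 CPM in the other normal KO libraries. Chance alone marks about 1 group in 20 by this measure.

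The change on mTORi culture differed between KO and WT cells, by the test of the difference itself (edgeR, KO change minus WT change, 4 libraries in each group), for 7 of the named genes. The differences on the log2 scale were 2.15 for Hist3h2a, 1.63 for Hist3h2ba, 1.19 for Hist1h1c, 0.58 for Hist1h3e, -0.21 for Hist1h2ap, -0.31 for Hist1h2ah and -0.50 for Hist1h3h. Those of Hist1h3e, Hist1h2ap and Hist1h3h lost their call when single libraries were left out.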

How the results depend on the processing

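No named gene past the threshold changed sign under any alternative run. Of 95 named results, 2 lost their call with DESeq2 size factors, 5 without a filter and 5 with length-scaled TPM counts, and 4 gained one with DESeq2's Wald test. The count called lower for the KO minus WT difference was 2 with DESeq2 size factors, 2 without a filter and 2 with length-scaled TPM counts, where 10 were called higher. A replicate block, a term for replicates 1 and 2 against 3 and 4, and DESeq2's Wald test gave 3, 3 and 2 genes higher in paused WT. The block moved no other count by over 1.5 times. Among named genes it brought Hist3h2a in paused WT (0.60, adjusted p = 0.0065) and the differences of Hist1h2af (-0.45) and Hist1h2bc (0.46) past the threshold, and Hist1h3e lost its difference (adjusted p = 0.053). The same-numbered correlations ran over -0.226 to 0.417, so the numbers were not taken as pairs. Chosen after seeing the data, replicates 1 and 2 alone gave 3 genes higher in paused WT. Replicates 3 and 4 alone gave 4 higher and 17 lower there, 7 and 2 for the KO minus WT difference, and 16 lower for KO against WT in normal culture.

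Without the near-identical genes, and so with 23 tested, 4 were higher and 3 lower in paused KO, 0 and 12 in paused WT, 9 and 1 for the difference, 0 and 13 for KO against WT in normal culture, and 7 were lower in paused culture. For the 0 counts, edgeR gave 1 gene each with all genes included.

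Leaving out 1 library or 1 replicate number gave 10 to 13 higher and 9 to 16 lower in paused KO, 1 to 5 and 19 to 27 in paused WT, 8 to 17 and 1 to 4 for the difference, 0 to 2 and 22 to 32 for KO against WT in normal culture, and 3 to 6 and 8 to 17 in paused culture.

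The log2 ratio of the sum of all genes in TPM was -0.29 for pausing in KO, -0.39 in CPM and -0.48 without the highest gene. For pausing in WT it was 0.00, -0.22 in CPM and -0.17 without the highest gene, and for KO against WT in normal culture 0.09 and -0.059 in CPM. Low counts limit most genes.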
